A study of Arabidopsis thaliana with 2 samples.

Results

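Expansins EXPA21 to EXPA26 are 6 genes that lie side by side on chromosome 5 of Arabidopsis thaliana, chosen by locus: EXPA21 (AT5G39260), EXPA22 (AT5G39270), EXPA23 (AT5G39280), EXPA24 (AT5G39310), EXPA25 (AT5G39300) and EXPA26 (AT5G39290). Of these 6, all but EXPA24 are among the 20029 genes listed in either library. Their levels were compared between the suspensor and the embryo proper of the globular embryo, both of genotype Ws-0. The suspensor is the stalk that anchors the embryo in the seed, and the embryo proper is the ball of cells at its tip from which the seedling grows. Both regions came from siliques of 1.1 to 1.4 cm on plants 38 to 46 days old, and each was cut by laser from sections of 5 or 7 μm of fixed, paraffin-embedded seeds whose embryo proper was 24 to 32 μm across. Each region gave 1 library, made by amplification from 15 ng of total RNA, and the number of seeds pooled in it is not given in the protocols. With 1 library per region there was no replicate check, no test was run, and each value describes these libraries. Because the cluster was chosen with its levels in these libraries known, the difference between the regions is a description and supports nothing by itself.

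Expansins are secreted proteins that loosen the plant cell wall. They let cellulose and the hemicelluloses bound to it slip past one another in an acid wall, without cutting the polymers, and so allow turgor to stretch the cell. The alpha-expansins, the class to which the annotation assigns these genes, share a first domain that resembles a family of glycosyl hydrolases and carries a His-Phe-Asp motif, followed by a second domain that binds polysaccharide. No separate role of any of the 6 proteins is described here.

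In the order along the chromosome the genes are EXPA21, EXPA22, EXPA23, EXPA26, EXPA25 and EXPA24, with 0 other protein-coding genes between them, all on the minus strand and each with 2 coding exons in the RefSeq annotation of TAIR10.1. The coding stretch around the His-Phe-Asp codons is shown for all 6 to make visible which copies can be told apart by their reads. The letters are those of RefSeq for the Columbia accession, not Ws-0. In EXPA23 the capitals mark the His-Phe-Asp codons, and in the other genes they mark bases that differ from EXPA23. The stretch covers coding bases 415 to 513 of EXPA23 and the 99 aligned bases of each other gene.
EXPA23: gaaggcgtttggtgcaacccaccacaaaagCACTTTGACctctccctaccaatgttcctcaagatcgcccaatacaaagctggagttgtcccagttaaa
EXPA25: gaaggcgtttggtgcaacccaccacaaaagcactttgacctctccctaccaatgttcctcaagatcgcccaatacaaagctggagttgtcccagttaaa
EXPA21: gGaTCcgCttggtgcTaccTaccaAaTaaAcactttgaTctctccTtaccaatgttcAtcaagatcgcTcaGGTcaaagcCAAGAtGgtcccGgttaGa
EXPA26: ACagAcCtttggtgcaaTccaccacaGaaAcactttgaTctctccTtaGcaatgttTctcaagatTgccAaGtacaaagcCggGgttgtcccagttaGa
EXPA22: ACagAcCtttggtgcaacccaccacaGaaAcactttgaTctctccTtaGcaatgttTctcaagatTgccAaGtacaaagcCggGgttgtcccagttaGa
EXPA24: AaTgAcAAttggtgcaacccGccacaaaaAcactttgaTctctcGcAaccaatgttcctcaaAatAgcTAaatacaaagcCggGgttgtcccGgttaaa

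EXPA25 had 0 differences from EXPA23 over these 99 bases, and EXPA22 and EXPA26 differed from each other at 1. EXPA21 had 24 differences from EXPA23, EXPA26 had 17, EXPA22 had 16 and EXPA24 had 17. The cluster therefore holds 2 close pairs and 2 lone copies. Over the whole coding sequence, EXPA23 and EXPA25 were identical at 97.5% of 828 aligned bases, and EXPA22 and EXPA26 at 97.7% of 840. The 13 other combinations ran from 74.9% to 84.7%, with EXPA21 at 79.1% to 79.9% to the 4 paired copies and EXPA24 at 74.9% to 77.4% to each of the others. The genes of a pair do not adjoin: EXPA22 is followed by EXPA23, and EXPA26 by EXPA25.

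The first 90 coding bases of the RefSeq models, shown next, are a part in which the copies of each pair do differ, and here the capitals mark the bases at which a gene differs from its partner. EXPA23 and EXPA25 differed at 7 of these bases, and EXPA26 and EXPA22 at 4.
EXPA23: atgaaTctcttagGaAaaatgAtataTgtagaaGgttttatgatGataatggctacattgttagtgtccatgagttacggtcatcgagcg
EXPA25: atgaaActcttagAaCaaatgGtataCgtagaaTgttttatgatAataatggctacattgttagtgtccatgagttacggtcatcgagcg
EXPA26: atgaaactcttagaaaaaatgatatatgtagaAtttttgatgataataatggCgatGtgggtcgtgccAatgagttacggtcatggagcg
EXPA22: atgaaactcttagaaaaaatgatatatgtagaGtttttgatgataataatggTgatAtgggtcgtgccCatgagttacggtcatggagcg

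Reads that fall in the identical parts cannot be assigned to 1 copy. Of 779 stretches of 50 bases in the coding sequence of EXPA23, 428 (54.9%) also occur in EXPA25, and of 791 such stretches in EXPA22, 301 (38.1%) also occur in EXPA26. With stretches of 100 bases these shares were 30.5% and 23.5%. EXPA21 and EXPA24 shared 0 stretches of 50 bases with any annotated coding sequence. Neither the read length nor the treatment of reads with several matches is stated, so the levels within each pair are uncertain, and both copies would be understated if such reads were dropped.

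Deposited values were RPKM, reads per kilobase of gene and 1000000 reads. Recovered from these values, the totals were 7189164 reads over 18672 listed genes for the suspensor and 12715759 reads over 18071 listed genes for the embryo proper. Intervals are 95% exact intervals of those reads, Poisson for a level and binomial for a ratio or a share, and cover counting error only, since reads were amplified and carry no molecular identifiers. In these bulk samples, a higher share of expressing cells and more RNA per cell cannot be told apart. With 1 RPKM added to each level, the 5 suspensor markers (WOX8, SSP, PIN7, WRKY2, HDG11) were all 4-fold or more higher in the suspensor library. The 5 embryo proper markers (PHB, WOX2, DRNL, CUC3, AGO10) were all 4-fold or more higher in the embryo proper library. Of all genes that reached 1 RPKM in either library, 12.3% and 8.32% were past 4-fold in these directions. Both lists were chosen with earlier results of these data known, so they are no independent check of the dissection.

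The cluster was far more abundant in the suspensor library, and nearly all of its signal came from 3 genes. Summed over the members, the level was 10446 RPKM in the suspensor and 660 RPKM in the embryo proper, 15.8-fold higher in the suspensor. At the coding lengths used, the members took 60534 reads in the suspensor, 0.842% of the library (0.835% to 0.849%), against 6701 reads in the embryo proper, 0.0527% (0.0514% to 0.0540%). EXPA21, EXPA23 and EXPA25 made up 56.7%, 35.6% and 7.60% of the summed level in the suspensor, against 76.2%, 18.9% and 4.55% in the embryo proper. EXPA26 and EXPA22 together stayed below the share of EXPA25 in each library, at 0.113% and 0.0252% in the suspensor, against 0.316% and 0.0601% in the embryo proper.

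**Figure D1:**
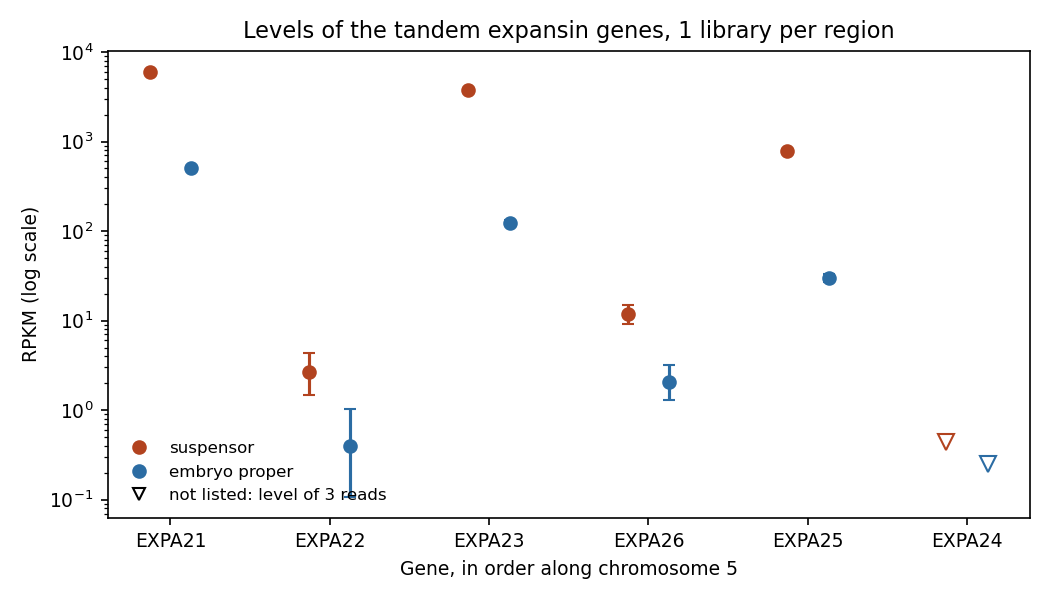
Level of each gene in RPKM on a log axis, in the order along chromosome 5, with the suspensor library left of the embryo proper library and bars for the 95% Poisson interval of the reads. EXPA21, EXPA23 and EXPA25 reach 5918, 3719 and 794 RPKM in the suspensor, the copies between them stay at 2.63 and 11.8 RPKM, and EXPA24, listed in neither library, is drawn at the level of 3 reads.

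EXPA21, the first gene of the row and a lone copy, was the most abundant in both regions. It stood at 5918 RPKM in the suspensor and 503 RPKM in the embryo proper, on 33570 and 5048 reads, which is 11.8-fold higher in the suspensor (11.4 to 12.1). It ranked 9 of 18672 listed genes in the suspensor, against 384 of 18071 in the embryo proper. Its annotated gene overlaps that of AT5G39250, an F-box protein gene on the opposite strand; whether reads were counted by strand is not stated in the sources used here, and AT5G39250 itself stood at 19.4 RPKM in the suspensor and 5.91 RPKM in the embryo proper.

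EXPA23 and EXPA25, the pair with near-identical coding sequence, were both high and had the largest ratios of the cluster. EXPA23 was at 3719 RPKM in the suspensor and 125 RPKM in the embryo proper, 29.9-fold higher (28.3 to 31.6). Its rank was 20 in the suspensor, against 1312 in the embryo proper. EXPA25 was at 794 RPKM in the suspensor and 30.03 RPKM in the embryo proper, 26.4-fold higher (23.6 to 29.7), with ranks of 185 and 4399. The intervals of the ratios of EXPA23 and EXPA25 overlapped each other, and both lay above the interval of EXPA21. Within a library, EXPA23 was 4.69 times the level of EXPA25 in the suspensor (4.54 to 4.84) and 4.15 times in the embryo proper (3.67 to 4.71).

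EXPA22 and EXPA26, the other pair, were low in both regions, although each lies next to a high copy. EXPA26 stood at 11.8 RPKM in the suspensor and 2.09 RPKM in the embryo proper, on 67 and 21 reads, 5.64-fold higher in the suspensor (3.41 to 9.70). EXPA22 stood at 2.63 RPKM in the suspensor and 0.397 RPKM in the embryo proper, on 15 and 4 reads, 6.63-fold higher (2.11 to 27.5). These intervals overlap, and EXPA26 was 4.47 times the level of EXPA22 in the suspensor (2.52 to 8.42) and 5.25 times in the embryo proper (1.77 to 21.0). EXPA23 exceeded EXPA26, its neighbour, 316-fold in the suspensor (249 to 408), against 59.7-fold in the embryo proper (38.9 to 96.8). EXPA24, the last gene of the row, was listed in neither library. Its limit was set at 3 reads, or 0.444 RPKM in the suspensor and 0.251 RPKM in the embryo proper. This limit is lower than the upper end that the Poisson interval of the other genes would give at 0 reads.

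High and low copies thus alternated over the first 5 genes of the row, and the copies of each close pair fell on the same side, EXPA23 and EXPA25 among the high and EXPA22 and EXPA26 among the low. How far reads from identical stretches add to this likeness was not tested. The order of the levels was the same in both regions, EXPA21, EXPA23, EXPA25, EXPA26, EXPA22 and EXPA24. The counting intervals of neighbours in this order did not overlap, with the exception of EXPA22 and EXPA24 in the embryo proper, where EXPA22 ran from 0.108 to 1.02 RPKM and took in the limit of EXPA24. The spacing differed between the regions: EXPA21 was 1.59 times EXPA23 in the suspensor (1.56 to 1.62), against 4.04 times in the embryo proper (3.80 to 4.30).

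Low counts also bear on the gene length behind the values of EXPA22 and EXPA26. At their annotated coding length of 840 bases, EXPA22 came to 15.9 reads in the suspensor against 4.24 in the embryo proper, and EXPA26 to 71.1 against 22.3. At 792 bases both genes came to whole reads in both libraries, 15 and 4 for EXPA22 and 67 and 21 for EXPA26. The bases shown, the identities and the shared stretches of both genes are those of the annotated 840 bases. Which bases make up the shorter length is not known. The read counts above use 792 bases for these genes and the annotated coding lengths for the others, 789 for EXPA21, 828 for EXPA23, 831 for EXPA25 and 939 for EXPA24. At annotated lengths EXPA23 came to 22140.57 reads in the suspensor against 1310.99 in the embryo proper, and EXPA25 to 4740.85 against 317.32. These are not whole in every case, and no other length was sought for these genes. Their read counts and their shares of the libraries therefore depend on the annotation.

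To set the cluster beside all genes, differences were also taken as log2(RPKM + 1) in the suspensor minus that in the embryo proper, which understates the difference of low genes. At least 1 RPKM in at least 1 library was reached by 5 of the 6 members, EXPA24 being the exception, and EXPA22 reached it in the suspensor alone. On this scale 4 members were past 4-fold towards the suspensor and 0 towards the embryo proper, beside 12.3% and 8.32% of the 16975 genes that reached 1 RPKM. Leaving the 10 most abundant genes of each library out of the scale, EXPA21 among them, gave 71.0% for the suspensor's share of all 4-fold genes, against 59.7% as deposited. The log2 differences were 4.89 for EXPA23, 4.68 for EXPA25, 3.55 for EXPA21, 2.05 for EXPA26 and 1.38 for EXPA22. Their median was 3.55 over those 5 members and 2.80 over all 6 with the unlisted EXPA24 taken as 0 in both libraries, beside 0.13 for all genes. The values just inside and just outside the threshold were 4.14-fold for EXPA26 and 2.60-fold for EXPA22, and EXPA26 fell short of it with a pseudocount of 5 RPKM and under 3 of 4 other scalings.

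**Figure D2:**
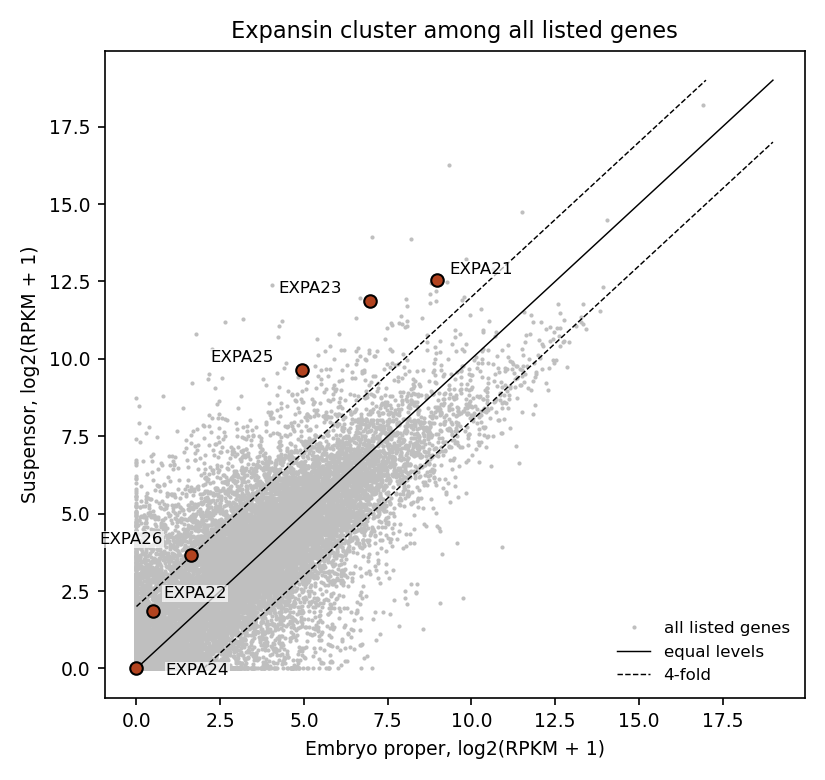
Each gene by its level in the suspensor (vertical) and the embryo proper (horizontal), both as log2(RPKM + 1), with solid and dashed lines for equal levels and 4-fold differences. EXPA21, EXPA23 and EXPA25 lie well above the upper 4-fold line, EXPA26 at it with 4.14-fold, and EXPA22 below it with 2.60-fold.

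The suspensor library also held more RNA of markers of the neighbouring seed tissues. Of 10 endosperm markers, 9 reached 1 RPKM and 8 of these were past 4-fold towards the suspensor, with a summed level of 386 RPKM in the suspensor and 25.5 RPKM in the embryo proper, and 0 of the 10 were unlisted in either. Of 11 seed coat markers, 9 reached 1 RPKM and 4 were past 4-fold towards the suspensor, with sums of 84.4 RPKM in the suspensor and 6.87 RPKM in the embryo proper. Beside both lists, 12.3% of all genes were past 4-fold towards the suspensor. TT16, a regulator of the inner seed coat, was listed in neither library, and BAN, TT2, TT8 and TT10 were not listed in the embryo proper. PHE1, an imprinted endosperm gene, stood at 0.828 RPKM in the suspensor against 0.936 in the embryo proper, and the seed coat gene MUM4 was lower in the suspensor, at 2.15 against 3.38 RPKM. The summed markers were 15.2-fold higher in the suspensor for endosperm and 12.3-fold for seed coat, beside 15.8-fold for the cluster. A few genes carried these sums: in the suspensor SUC5 gave 177 RPKM of the endosperm sum, and TT1 and LDOX 41.3 and 25.7 RPKM of the seed coat sum. Single endosperm markers ran from 0.884-fold for PHE1 (0.237 to 2.84) to 101-fold for IKU2 (17.4 to 4051), suspensor over embryo proper. Both ends rest on low counts, with 5 suspensor reads against 10 for PHE1 and 57 against 1 for IKU2. On log2(RPKM + 1) IKU2 was short of 4-fold, at 1.84. SUC5, on 1956 suspensor reads against 86, was 40.2-fold higher in the suspensor (32.4 to 50.5). The part of these tissues in the levels of the expansins was not tested.

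The flanking genes were low or moderate in level, and several were not listed. Of the 10 protein-coding genes on each side of the cluster, 8 of 20 reached 1 RPKM. On log2(RPKM + 1), 1 of these was past 4-fold towards the suspensor and 0 towards the embryo proper, beside 12.3% and 8.32% of all genes. Their median log2 difference was 0.57, beside 0.13 for all genes. The gene past 4-fold was AT5G39330, annotated as a protein of unknown function, at 6.15 RPKM in the suspensor and not listed in the embryo proper. The genes that border the row were AT5G39250, 3.29-fold higher in the suspensor (2.36 to 4.62), and UDG4 (AT5G39320), a UDP-glucose dehydrogenase gene, at 5.11 RPKM in the suspensor and 5.07 RPKM in the embryo proper.

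Among the other flanking genes of at least 10 RPKM, levels were moderate and the directions mixed. AHP3, a phosphotransfer protein gene of cytokinin signalling, stood at 32.1 RPKM in the suspensor against 14.1 in the embryo proper, and EDL2, an F-box gene related to EID1, at 96.3 in the suspensor against 41.5. AT5G39350, of the pentatricopeptide repeat type, was lower in the suspensor at 8.75 RPKM against 36.7 in the embryo proper, which as a plain ratio is 4.19-fold higher in the embryo proper (3.48 to 5.08). AT5G39380, a calmodulin-binding protein gene, was also lower in the suspensor, at 12.6 RPKM against 20.9. None of the 20 flanking genes reached the level of EXPA25 in the suspensor.

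**Figure D3:**
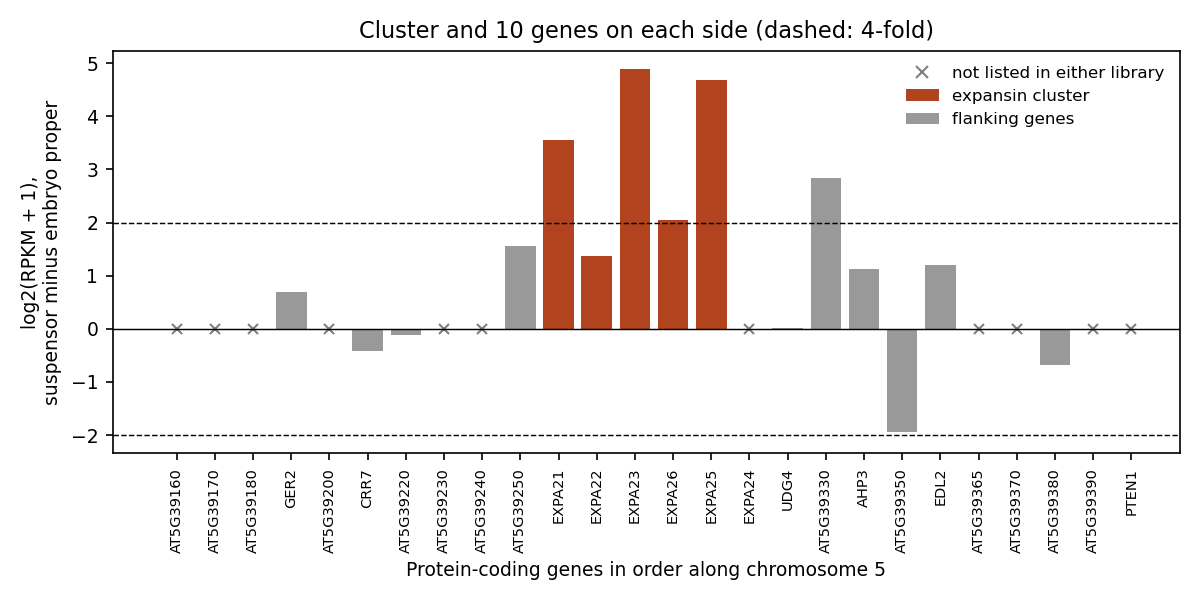
Difference between the suspensor and the embryo proper as log2(RPKM + 1) for the 6 expansins and the 10 protein-coding genes on each side, in order along chromosome 5, with dashed lines at 4-fold and crosses for genes listed in neither library. The bars of EXPA21, EXPA23 and EXPA25 stand at 3.55, 4.89 and 4.68, and among the flanking genes AT5G39330 is at 2.84.

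Sequence upstream of the genes was compared over the 250 bases before each annotated transcript start. EXPA22 and EXPA26 were identical at 98.3% of 240 aligned bases. EXPA23 and EXPA25 were less alike there than in their coding sequence, at 72.9% of 236 bases, and EXPA21 and EXPA23 were identical at 75.8% of 227. The other pairs ran from 52.9% for EXPA21 and EXPA24 to 73.7% for EXPA23 and EXPA26, a high and a low copy. The letters TATAAA, searched on both strands, occurred upstream of EXPA21, EXPA24 and EXPA26 and of 47.3% of all protein-coding genes. CACGTG and TGTCNC, also searched on both strands, occurred upstream of 0 of the 6 members, and of 6.46% and 23.8% of all protein-coding genes.

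The rest of the expansin family summed to less than the cluster in the suspensor library and was mixed in direction. Of 30 other expansin and expansin-like genes, 19 were listed and 12 reached 1 RPKM. On log2(RPKM + 1), 4 of these were past 4-fold towards the suspensor and 2 towards the embryo proper, beside 12.3% and 8.32% of all genes. The median log2 difference was 0.70, beside 0.13 for all genes. Together the 30 genes had 1092 RPKM in the suspensor and 876 RPKM in the embryo proper, so in the suspensor the cluster had the larger sum and in the embryo proper the smaller. The largest ratio of the family was not in the cluster: EXPA14 (AT5G56320) stood at 591 RPKM in the suspensor and 2.15 RPKM in the embryo proper, 273-fold higher (185 to 423).

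On the log2(RPKM + 1) scale, a further 3 genes outside the cluster were past 4-fold towards the suspensor. EXPB4, a beta-expansin gene, stood at 181 RPKM in the suspensor against 11.7 in the embryo proper, EXPA9 at 92.9 against 11.7 RPKM, and EXPA4 at 56.8 against 9.65 RPKM. EXPA20 at 11.9 RPKM in the suspensor against 2.55 in the embryo proper, and EXPA3 at 5.99 against 1.10 RPKM, were short of 4-fold on that scale but 4.67-fold and 5.47-fold higher as plain ratios. Past 4-fold in the other direction were EXPA15 and EXPA6. EXPA15 stood at 109 RPKM in the suspensor against 714 in the embryo proper, where it exceeded each member of the cluster. EXPA6 was at 0.899 RPKM in the suspensor against 42.4 in the embryo proper, and short of 4-fold EXPA10 was at 16.2 against 34.3, EXPA13 at 6.08 against 17.1 and EXPA5 at 15.9 against 20.4 RPKM. EXPB3 was also lower in the suspensor and short of 4-fold, at 2.80 against 7.62 RPKM.

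**Figure D4:**
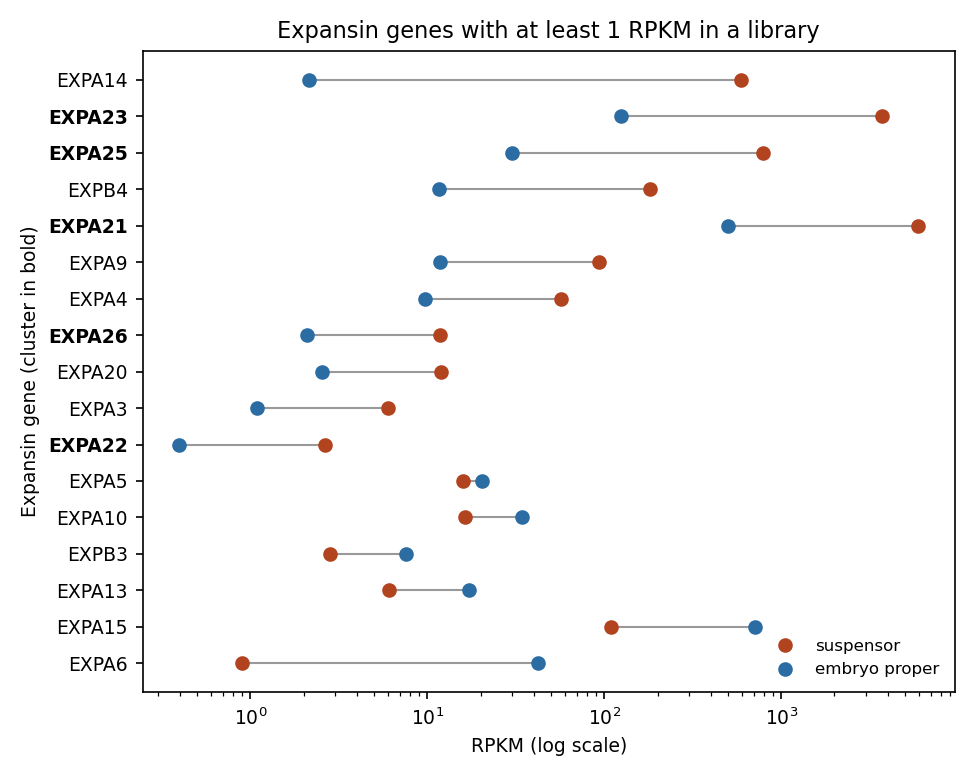
Level in RPKM, on a log axis, of each expansin gene that reached 1 RPKM in either library, in the suspensor and the embryo proper, ordered by the log2 difference, with the cluster in bold. EXPA14 has the largest difference, EXPA21 and EXPA23 the highest levels in the suspensor at 5918 and 3719 RPKM, and EXPA15 the highest level in the embryo proper at 714 RPKM.

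The genes whose levels in the 2 libraries were most like those of EXPA21, by distance in log2(RPKM + 1), were SCRL14 (AT4G22115) at 5534 RPKM in the suspensor against 443 in the embryo proper, AT5G54220 at 5678 against 612, LCR84 (AT2G14365) at 4661 against 494, SCRL10 (AT4G15735) at 4383 against 430, and AT5G46950 at 3695 against 493 RPKM. Their distances from EXPA21 ran from 0.21 to 0.68, and 8 genes lay within a distance of 1. The annotation gives SCRL14, SCRL10, LCR84 and AT5G54220 as small cysteine-rich proteins and AT5G46950 as an inhibitor of invertase or pectin methylesterase. A likeness over 2 libraries is weak, since it holds only a level and a ratio.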

How the data were processed

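Transcripts were sequenced from 1 suspensor and 1 embryo proper library, grouped by the tissue in the labels. Per the labels' protocols, 15 ng of total RNA was amplified, and libraries from 150 ng of cDNA were enriched by 15 cycles of PCR. The deposited values are RPKM, made by the authors, per the file headers; a gene missing from a file was taken as 0. HTSeq 0.6.1, HISAT2 2.0.6 and TAIR10 are named, with no role, in the submitters' processing notes.

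Names, gene order and coding sequence came from RefSeq TAIR10.1, which differs in name from the files' build, so no coordinates are given; protein sequences were not used here. Reads were recovered as RPKM times coding length, at the total where low values (at least 0.2 RPKM, at most 15 reads) become whole: 96.9% (suspensor) and 96.6% (embryo proper) of them, in genes of 1 gene model, were within 0.05 of a whole read. The search and the fold count were tested on simulated data. The length of 792 bases for 2 genes was found after seeing their values, as the multiple of 3 bases nearest to whole reads in both libraries. Identity is over aligned bases of global alignments (Biopython 1.88: match 2, mismatch -1, gap opening -5, gap extension -1).

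Named genes were the 6 members, other expansins and flanking genes of at least 10 RPKM, and the 5 genes nearest to the most abundant member. EXPA3, EXPB3, AT5G39330 and UDG4, all below 10 RPKM, and the tissue markers were named in addition. Members, lists and alternatives were chosen with earlier results of these data known. With 1 library per region no test was possible. Alternatives were other pseudocounts, filters, scalings, thresholds and list limits. Python 3.11.15, scipy 1.17.1 and pandas 2.3.3 were used.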

Additional observations from a re-analysis of the deposited data

How the results depend on the processing

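No log2 difference of a member, of their median or of their sum changed direction under any alternative run. For a single gene a pseudocount, filter or threshold cannot change the direction, so only the scalings could have done so. The directions of single flanking genes and other expansins were not followed over the alternatives. No paired analysis was possible because each region has 1 library. The count of the 6 members past 4-fold towards the suspensor was 3 to 5, against 4 as reported. It was 5 with a pseudocount of 0.1 RPKM, beside 3186 of 16975 genes, and 3 with a pseudocount of 5 RPKM, beside 1004 of 16975. Over all alternatives the log2 difference ran from 3.41 to 3.86 for EXPA21, 4.74 to 5.19 for EXPA23, 4.51 to 4.98 for EXPA25, 1.24 to 2.50 for EXPA26 and 0.50 to 2.73 for EXPA22. The median of the members and the log2 ratio of the summed cluster were 3.49 and 3.92 with each library scaled to a sum of 1000000, and 3.49 and 3.92 when scaled by the upper quartile. They were 3.41 and 3.83 when scaled to a median of 0, and 3.86 and 4.29 with the 10 most abundant genes of each library left out of the scale. The last 2 scalings moved the median of all genes by -0.14 and 0.28. The median of the members was 4.12 with a filter of 10 RPKM. It was 3.36 without EXPA21, 4.12 without EXPA22 or EXPA26, and 2.80 without EXPA23 or EXPA25. Of the 12 other expansins that reached 1 RPKM, 2 were past 8-fold towards the suspensor, beside 885 of 16975 genes. At 4-fold the numbers were 4 and 2095. Flanking genes past 4-fold towards the suspensor numbered 0 with a pseudocount of 5 RPKM, beside 1004 of 16975 genes. They also numbered 0 with a filter of 10 RPKM, beside 1586 of 10992, and among genes listed in both files, beside 1784 of 15815. Of the 8 flanking genes that reached 1 RPKM, 0 were past 8-fold and 4 past 2-fold, beside 885 and 4969 of 16975 genes. With 20 genes on each side, 4 of 13 were past 4-fold. A change of filter, or the limit to genes listed in both files, cannot change the ratio of a gene it keeps. It also left the summed cluster unchanged. Those values count as close, so the next number overstates how much was put to trial. In all, 78 of 108 alternative values stayed close to the reported value. For counts this meant within 1.5 times, and for log2 values within a band as wide as the counting interval, centred on the reported value. The band can reach past the interval itself, as for EXPA22 at 0.50 with a pseudocount of 5 RPKM. For the median of the members the interval of EXPA21 was used. Depth limits EXPA22, on 15 and 4 reads, and EXPA24, for which the set limit was 0.444 RPKM in the suspensor and 0.251 RPKM in the embryo proper.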
